A study of Mus musculus with 31 samples.

Results

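The genes described here are 8 enzymes of cholesterol synthesis, chosen by name: Hmgcs1, Idi1, Fdps, Fdft1, Sqle, Lss, Cyp51 and Dhcr7. Each of the 8 had at least 1 probe set annotated with its symbol alone, 11 probe sets in all, among 8251 genes measured by 12422 probe sets on 31 Affymetrix MgU74Av2 arrays. The arrays followed B6 mouse embryonic stem (ES) cells as they differentiated into embryoid bodies (EBs), aggregates that form many cell types once leukemia inhibitory factor (LIF) is withdrawn. All cells came from cultures kept on mouse embryonic fibroblast feeders with LIF in medium holding 15% fetal calf serum. Undifferentiated cells were represented by 6 arrays of ES cells sorted by flow cytometry for an Oct4 GFP reporter and 6 arrays of ES cells depleted of feeders and passaged once on gelatin. EBs were seeded in nonadherent dishes from the cells on gelatin, without LIF, and sampled at day 4 on 7 arrays, at day 8 on 6 arrays and at day 14 on 6 arrays. The methods name another day for the last of these groups, and the day in the labels is used here. The labels give no other genotype or treatment and do not say which arrays came from separate cultures, so the p-values measure the spread between these arrays.

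Cholesterol is built from acetyl-CoA. Hmgcs1 makes HMG-CoA near the start of the route. Idi1 and Fdps turn the resulting isoprene units into farnesyl diphosphate, which also feeds protein prenylation, and Fdft1 joins farnesyl diphosphates into squalene, the first step committed to sterols. Sqle and Lss oxidise and cyclise squalene to lanosterol, Cyp51 removes its 14-alpha methyl group, and Dhcr7 performs the last reduction to cholesterol. When sterols in the endoplasmic reticulum are low, the transcription factor SREBP-2 is released to the nucleus and raises these enzymes together. Serum lipoproteins are an outside source of cholesterol for cultured cells.

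Control by sterols acts through short elements in promoters, and 5 of the 8 genes have an entry in the RefSeq promoter table on mouse build GRCm38.p6. Among these, Hmgcs1 and Cyp51 had the widest swings in signal of the 8, and Idi1 followed them from array to array. Lss followed them less closely, and Dhcr7 did not follow them over all arrays after group means were removed. The 250 bases before each start are shown for these 5 genes. That of Hmgcs1 lies at chr13:119690101-119690350 on the plus strand, that of Idi1 at chr13:8885356-8885605 on the plus strand, that of Lss at chr10:76531355-76531604 on the plus strand, that of Cyp51 at chr5:4104698-4104947 on the minus strand and that of Dhcr7 at chr7:143829964-143830213 on the plus strand, each read 5′ to 3′ in the direction of its gene. Dhcr7 has 3 annotated starts and the one shown is the only one of them with a CCAAT match. Capitals mark matches on either strand to CCAAT (or its complement ATTGG), the letters bound by NF-Y, and to TCACNCCAC, the letters of the classical sterol regulatory element.
Hmgcs1: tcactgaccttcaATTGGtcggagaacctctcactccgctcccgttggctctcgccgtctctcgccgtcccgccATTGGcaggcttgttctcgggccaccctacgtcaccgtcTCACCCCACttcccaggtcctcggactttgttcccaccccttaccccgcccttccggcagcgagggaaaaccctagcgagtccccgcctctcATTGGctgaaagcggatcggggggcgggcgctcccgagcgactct
Idi1: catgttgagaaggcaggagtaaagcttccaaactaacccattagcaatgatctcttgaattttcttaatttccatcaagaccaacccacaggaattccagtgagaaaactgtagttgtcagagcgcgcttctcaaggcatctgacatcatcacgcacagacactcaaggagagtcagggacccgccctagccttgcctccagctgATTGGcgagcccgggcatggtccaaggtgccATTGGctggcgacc
Lss: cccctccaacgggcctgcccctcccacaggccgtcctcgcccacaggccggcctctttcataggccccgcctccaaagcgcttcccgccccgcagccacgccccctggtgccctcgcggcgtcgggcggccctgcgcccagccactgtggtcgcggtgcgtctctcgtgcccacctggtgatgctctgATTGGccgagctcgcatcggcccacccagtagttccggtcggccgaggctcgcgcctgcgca
Cyp51: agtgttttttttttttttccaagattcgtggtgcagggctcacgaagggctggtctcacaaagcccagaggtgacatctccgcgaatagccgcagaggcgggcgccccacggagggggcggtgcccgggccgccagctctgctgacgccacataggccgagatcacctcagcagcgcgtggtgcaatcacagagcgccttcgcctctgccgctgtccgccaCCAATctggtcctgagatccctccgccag
Dhcr7: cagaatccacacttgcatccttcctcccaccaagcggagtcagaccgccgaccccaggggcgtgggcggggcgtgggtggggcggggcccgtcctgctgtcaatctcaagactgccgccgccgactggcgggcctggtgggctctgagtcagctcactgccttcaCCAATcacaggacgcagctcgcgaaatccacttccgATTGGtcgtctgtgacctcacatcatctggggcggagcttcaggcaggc
TCACNCCAC matched in Hmgcs1 alone of the 5 genes, with its first base 137 bases before the start. It matched in 1.05% of 32851 promoters, each searched over the same 250 bases before its start. CCAAT matched in the promoter shown for each of the 5 genes and in 33.8% of promoters over those bases. That share counts every promoter singly, whereas Dhcr7 matched only at the start shown of its 3. Hmgcs1 held 3 matches, at 237, 176 and 45 bases before the start, Idi1 held them at 45 and 14, Lss at 62, Cyp51 at 29 and Dhcr7 at 85 and 49. The motifs do not overlap each other in these windows. A match is a description of the letters and no match says nothing of whether the factor binds.

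Markers of the labelled cells were present as sums over lists, which can hide single genes. The summed signal of 11 undifferentiated ES cell genes, all measured, was 49362 to 63358 in sorted cells, 28597 to 35442 on gelatin and 10886 to 20687 at day 14. Its mean was lower on gelatin, at 33568, than at day 4, at 40463.5. Within this list Pou5f1 read 5491 to 6899 in sorted cells and 3908 to 5253 on gelatin. Zfp42 read 5058 to 9032 in sorted cells but 550 to 845 on gelatin, with means of 1577 at day 4 and 3700 at day 8. The sum of 9 measured visceral endoderm and liver genes (11 listed) went from 2488 to 2758 in sorted cells to 31447 to 40923 at day 14, and that of 10 measured fibroblast genes (11 listed) was 22755 to 39890 on gelatin and 11408 to 15655 in sorted cells. No marker of these lists lay at the floor on every array of a group. Within day 4, arrays 6 and 7 stood apart: they correlated at 0.947 to 0.978 with the other 5, which correlated at 0.987 to 0.993 among themselves. Their ES marker sums were 27969 and 33579 against 40304 to 49811 on the other 5, and their endoderm sums 5829.8 and 7898 against 2482 to 2672. The day 8 arrays also held 2 levels of these markers, with ES sums of 37216 to 45958 on arrays 1, 3 and 5 and 19300 to 21658 on arrays 2, 4 and 6. The 3′ to 5′ signal ratio of Gapdh, a sign of RNA or amplification quality, was 5.22 ± 1.55 (SD, n = 6) on gelatin and 2.31 to 3.12 as group means elsewhere. In whole cultures a change in the share of a cell type and a change in RNA per cell cannot be told apart.

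Hmgcs1 had the largest log2 rise of the 8 genes at day 14, whether set against day 8, gelatin or sorted cells. In sorted cells its signal, the deposited linear intensity of its probe set, ran from 1367 to 5142 with a median of 4096, and on gelatin it ran from 2263 to 4394 with a median of 3599. At day 4 it ran from 1250.3 to 7208 with a median of 4871, and at day 8 from 1744 to 5854 with a median of 2826. All 6 day 14 arrays lay from 5864 to 9068 with a median of 7398. The day 14 arrays lay above every array of the sorted, gelatin and day 8 groups. Of the day 4 arrays only replicate 4, at 7208, reached into the day 14 range. Day 14 was not tested against day 4. Relative to day 8 the rise was 1.25 ± 0.37 on the log2 scale (limma, estimate ± SE, adjusted p = 0.0106), or 2.39-fold. Against cells on gelatin it was 1.17 ± 0.37 (adjusted p = 0.0106). Against sorted cells it was 1.09 ± 0.37 (adjusted p = 0.016), and without sorted replicate 5, which at 1367 was the lowest of its group, it was 0.81 (adjusted p = 0.0613). Before day 14 no step passed the test, with 0.16 ± 0.35 from gelatin to day 4 and -0.25 ± 0.35 from day 4 to day 8.

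**Figure D1:**
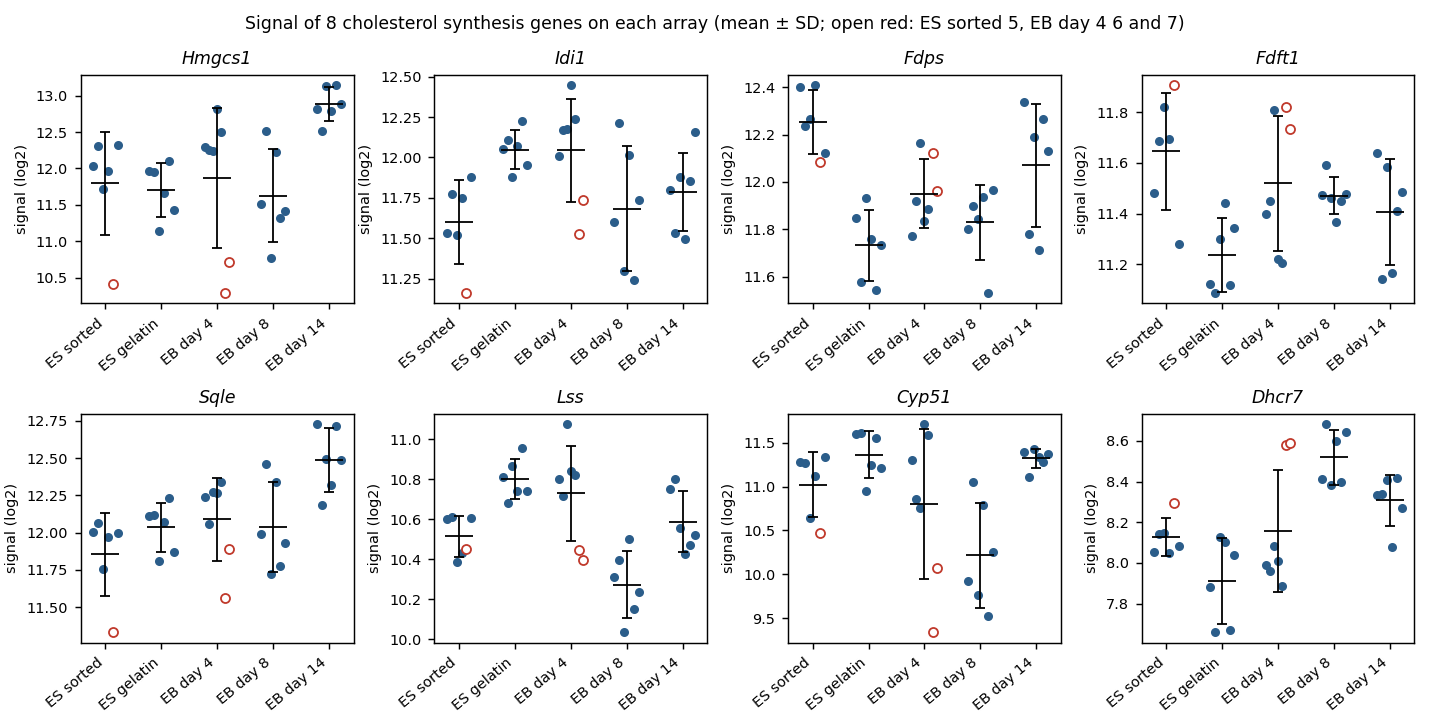
Signal of the 8 genes on each of 31 arrays (y axis, log2 of the deposited signal with values under 59.6 raised to it; each panel has its own range), by group on the x axis. Each point is 1 array, the horizontal mark and bar are the group mean and SD, and open red points are sorted replicate 5 and day 4 replicates 6 and 7. The 6 day 14 points of Hmgcs1 sit together at the top of its panel, while the day 8 points of Cyp51 and Lss sit low.

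Idi1, the isomerase that makes the starter unit for chain growth, passed the test between the 2 kinds of ES cell and at none of the steps from gelatin through day 4 and day 8 to day 14. In sorted cells its signal ran from 2289 to 3763 with a median of 3199, and on gelatin from 3765 to 4778 with a median of 4281. The lowest gelatin array lay just above the highest sorted array. The difference was 0.45 ± 0.16 log2, higher on gelatin (adjusted p = 0.026), and it no longer passed without sorted replicate 5 (0.36, adjusted p = 0.0807), without gelatin replicate 5 (0.41, adjusted p = 0.0555) or with quantile normalization (0.27, adjusted p = 0.0926). Group means afterwards were 4304 ± 895 at day 4, 3389 ± 915 at day 8 and 3573 ± 611 at day 14 (SD, n = 7, 6 and 6), and these groups overlapped each other.

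Fdps and Fdft1, which stand on either side of the branch point at farnesyl diphosphate, were lower on gelatin than in sorted cells. Fdps signal ran from 4336 to 5439.5 with a median of 4877 in sorted cells and from 2985 to 3909 with a median of 3433 on gelatin, with no overlap. It was lower on gelatin by 1.44-fold (-0.52 ± 0.10 log2, adjusted p = 0.000129). Day 14 arrays, from 3356 to 5177 with a median of 4579, overlapped with both kinds of ES cell, and their difference was 0.34 ± 0.10 from gelatin (adjusted p = 0.00671) and -0.18 ± 0.10 from sorted cells (adjusted p = 0.132). Fdps has 4 probe sets, and the one with the highest mean carries the suffix for probes shared between similar sequences, so its signal may include related transcripts. The second probe set gave larger differences: -0.92 ± 0.14 between gelatin and sorted cells (adjusted p = 8.52e-06), 0.60 ± 0.14 from gelatin to day 4 (adjusted p = 0.00173) and 0.97 ± 0.14 from gelatin to day 14 (adjusted p = 2.51e-06). From sorted cells to day 14 it gave 0.05 ± 0.14 (adjusted p = 0.811), where the first had -0.18. Another probe set differed by -0.29 ± 0.07 log2 between gelatin and sorted cells (adjusted p = 0.00169). For day 14 it departed from the first 2. It gave -0.33 ± 0.07 from sorted cells, with no overlap (adjusted p = 0.000291), and -0.04 ± 0.07 from gelatin (adjusted p = 0.666). The remaining probe set passed no comparison.

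Fdft1, squalene synthase, moved the same way between the ES groups. Its signal ran from 2486 to 3843 with a median of 3309.7 in sorted cells and from 2174 to 2783 with a median of 2374 on gelatin, and the lowest sorted array fell inside the gelatin range. The difference was -0.41 ± 0.11 log2 (adjusted p = 0.00508). EB means of 2980.2 ± 548, 2840.3 ± 144 and 2736 ± 388 at days 4, 8 and 14 lay between those of the ES groups. None of the steps between EB days passed the test for Fdft1.

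Sqle, squalene epoxidase and another control point of the pathway, was highest at day 14. Its signal ran from 2574 to 4279.6 with a median of 4049.8 in sorted cells, from 3585 to 4806 with a median of 4367 on gelatin, from 3015 to 5175 with a median of 4824 at day 4 and from 3371 to 5643 with a median of 3989 at day 8. At day 14 it ran from 4650.1 to 6785 with a median of 5757. Every day 14 array exceeded every sorted array, and the other groups reached into the day 14 range. The rise at day 14 was 0.63 ± 0.14 log2 over sorted cells (adjusted p = 0.000592), 0.45 ± 0.14 over gelatin (adjusted p = 0.0112) and 0.45 ± 0.14 over day 8 (adjusted p = 0.0175). The last of these was lost without day 8 replicate 3 (0.39, adjusted p = 0.0548) or replicate 5 (0.40, adjusted p = 0.0507). Sorted, gelatin, day 4 and day 8 means of 3754 ± 642, 4219 ± 465, 4421 ± 781 and 4281 ± 927 had ranges that overlapped each other.

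Lss and Cyp51, the next enzymes along the route, were lowest at day 8. Lss, lanosterol synthase, ran from 1641 to 1985 with a median of 1754 on gelatin and from 1048 to 1447 with a median of 1239.5 at day 8, with no overlap. Its change from gelatin to day 8 was -0.53 ± 0.09 log2 (adjusted p = 4.57e-05), and from day 4, where it ran from 1345 to 2157 with a median of 1784, the change was -0.46 ± 0.09 (adjusted p = 0.000429). It rose again to day 14, from 1375 to 1783 with a median of 1486, by 0.32 ± 0.09 (adjusted p = 0.0111; 0.22 and 0.0516 with each array centred on its median). Sorted cells, from 1339 to 1563 with a median of 1475, lay below all gelatin arrays, by 0.28 ± 0.09 (adjusted p = 0.0161; 0.15 and 0.179 with quantile normalization).

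Cyp51, the lanosterol demethylase, had a deeper trough. Its signal ran from 1419 to 2579 with a median of 2349 in sorted cells and from 1984 to 3132 with a median of 2709 on gelatin. At day 4 it ran from 647 to 3349 with a median of 1857, at day 8 from 737 to 2121 with a median of 1096 and at day 14 from 2216 to 2748 with a median of 2617. Every day 14 array lay above every day 8 array, and the day 14 and gelatin ranges overlapped. The change from gelatin to day 8 was -1.14 ± 0.30 log2 (adjusted p = 0.00273), a 2.21-fold lower level, and from day 8 to day 14 it was 1.10 ± 0.30 (adjusted p = 0.00585), or 2.15-fold. Between gelatin and day 14 it was -0.04 ± 0.30 (adjusted p = 0.955). Day 8 levels were not uniform: arrays 2 and 4, of low ES and high endoderm marker sums, read 2121 and 1770.4, array 6 of the same marker levels read 1221, and arrays 1, 3 and 5 read 970.2, 866 and 737. The part of the mix of cells in the day 8 level was not tested.

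Dhcr7, the final reductase, was dim, at the 30.8th percentile of mean signal over all probe sets tested, and ran opposite to Cyp51 and Lss at day 8. Its signal ran from 265 to 314 with a median of 277 in sorted cells, from 202 to 280.2 with a median of 249 on gelatin and from 334 to 411 with a median of 364 at day 8. All day 8 arrays exceeded all ES arrays of both kinds. The rise from gelatin to day 8 was 0.61 ± 0.11 log2 (adjusted p = 6.45e-05). From day 4 it was 0.36 ± 0.11 (adjusted p = 0.0127), with 5 day 4 arrays at 237 to 272 and the other two, arrays 6 and 7, at 383 and 386, inside the day 8 range. At day 14 it ran from 271 to 342 with a median of 324, which was above gelatin by 0.40 ± 0.11 (adjusted p = 0.00428). With only the arrays of days 4 and 8 in the fit, the day 8 change of Dhcr7 had an adjusted p of 0.0809.

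Between gelatin and sorted cells, Idi1 and Lss were higher and Fdps and Fdft1 lower on gelatin, 2 genes each way of 8, where 23.3% of all genes were higher and 18.4% lower. The 4 others were Hmgcs1, Sqle, Cyp51 and Dhcr7, with changes of -0.09 ± 0.37, 0.18 ± 0.14, 0.34 ± 0.30 and -0.21 ± 0.11 log2. Fibroblast marker sums and the Gapdh ratio were both higher on gelatin. So were the sums of 6 neural genes, at 11865 to 14491 on gelatin and 4778 to 5915 in sorted cells, and of 6 cardiac muscle genes, at 3288 to 4629 and 2908 to 3287. The part of these in the differences was not tested. From gelatin to day 4, none of the 8 passed in either direction, where 8.33% of genes rose and 17.8% fell. With quantile normalization 2 rose, Fdps (0.36, adjusted p = 0.00812) and Fdft1 (0.42, adjusted p = 0.0129), and with median centring Dhcr7 did as well (0.32, adjusted p = 0.0250).

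From day 4 to day 8, Dhcr7 rose and Lss fell, 1 gene each way, where 13.6% of genes rose and 13.0% fell. The number that fell depended on day 4 arrays 6 and 7. On them Hmgcs1 read 1250.3 and 1686 against 4825 to 7208 on the other 5, and Cyp51 read 647 and 1077 against 1735 to 3349. Without them 4 genes fell, namely Lss, Hmgcs1 (-0.79, adjusted p = 0.0324), Idi1 (-0.52, adjusted p = 0.00742) and Cyp51 (-1.03, adjusted p = 0.000888). The share of all genes that fell without these arrays was not computed, so this count has no background beside it. Compared with gelatin rather than day 4, day 8 had Lss and Cyp51 lower and Dhcr7 higher, where 26.2% of genes were lower and 18.7% higher.

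From day 8 to day 14, Hmgcs1, Cyp51, Sqle and Lss rose and none fell, 4 of 8 genes, where 21.1% of genes rose and 13.0% fell. The median change of the 8 was 0.28 log2 against 0.03 over all genes. Fdps, Idi1, Fdft1 and Dhcr7 changed by 0.24 ± 0.10, 0.10 ± 0.16, -0.06 ± 0.11 and -0.21 ± 0.11 without passing, and with median centring Dhcr7 fell (-0.30, adjusted p = 0.0322). The second probe set of Fdps did pass from day 8 to day 14 (0.42 ± 0.14, adjusted p = 0.0263). From gelatin to day 14, Hmgcs1, Sqle, Fdps and Dhcr7 rose, again 4 of 8 and none fell, where 22.8% of genes rose and 24.1% fell. From sorted cells to day 14, Hmgcs1 and Sqle rose, 2 of 8, where 27.0% rose and 24.4% fell. In that comparison Fdps and Fdft1 were lower with quantile normalization (-0.28, adjusted p = 0.0231, and -0.35, adjusted p = 0.0221). The comparisons that share a group share its arrays, so their counts are not separate evidence. Endoderm marker sums were 15752 to 30814 at day 8 and 31447 to 40923 at day 14, and fibroblast sums 6188 to 20525 and 26514.5 to 43604, while the sum of 6 neural genes, all measured, was 3598 to 6834 and 8254 to 16509.6. The part of such cells in the day 14 rise was not tested.

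**Figure D2:**
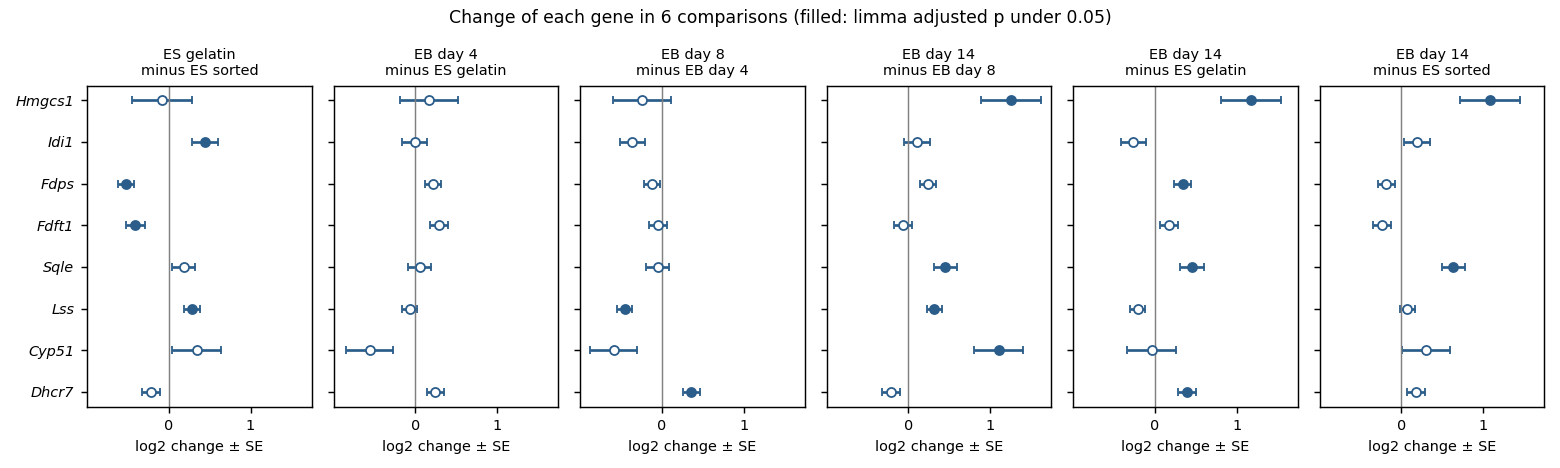
Log2 change of each gene (x axis, limma estimate with SE bars) in 6 comparisons, 1 panel each, with the genes in pathway order on the y axis. Filled points passed an adjusted p of 0.05 over all probe sets tested. From day 8 to day 14 Hmgcs1 and Cyp51 lie furthest right, at 1.25 and 1.10, and in the day 4 panel no point is filled.

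The genes also varied between arrays of the same group, and not equally. The pooled SD within groups was 0.65 log2 for Hmgcs1, at the 99.6th percentile of all genes, and 0.53 for Cyp51, at the 98.4th, where the median gene had 0.155. Idi1 and Sqle had 0.28 and 0.25. These 4 genes, grouped here after their values were seen, moved together from array to array. After group means were removed, the 6 pairs among Hmgcs1, Idi1, Sqle and Cyp51 correlated at 0.836 to 0.908 over 31 arrays, and at 0.769 to 0.867 over the 28 arrays left without sorted replicate 5 and day 4 replicates 6 and 7. On 21 of 31 arrays all 4 lay on the same side of their group means. At day 8 they lay above on arrays 2 and 4 and below on arrays 1, 3 and 5, which differed in marker sums. On gelatin they lay above on arrays 1, 2 and 5 and below on arrays 3 and 6, which differed in Gapdh ratio. The part of either in this was not tested. Neither the count nor these correlations were computed for genes outside the 8, so they have no background beside them. They are descriptions over arrays that share culture, amplification and normalization.

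With all arrays kept, r of Hmgcs1 with its partners was positive in each group separately. Within single groups r was not computed without sorted replicate 5 or day 4 replicates 6 and 7, so the sorted and day 4 values rest partly on them. Between Hmgcs1 and Sqle r was 0.981 in sorted cells, 0.970 on gelatin, 0.934 at day 4, 0.975 at day 8 and 0.691 at day 14 (n = 6 or 7 arrays). Between Hmgcs1 and Cyp51 it was 0.884, 0.960, 0.957, 0.897 and 0.644 in the same order, and between Hmgcs1 and Idi1 0.931, 0.929, 0.962, 0.921 and 0.566. All 3 pairs had their lowest value at day 14. Among the sorted arrays the 4 genes were lowest together on replicate 5, with Hmgcs1 at 1367, Idi1 at 2289, Sqle at 2574 and Cyp51 at 1419. At day 8 they were highest together on array 2, with Hmgcs1 at 5854, Idi1 at 4746, Sqle at 5643 and Cyp51 at 2121. Lss followed them less closely, at 0.56 to 0.63 over 31 arrays and 0.34 to 0.46 over 28.

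**Figure D3:**
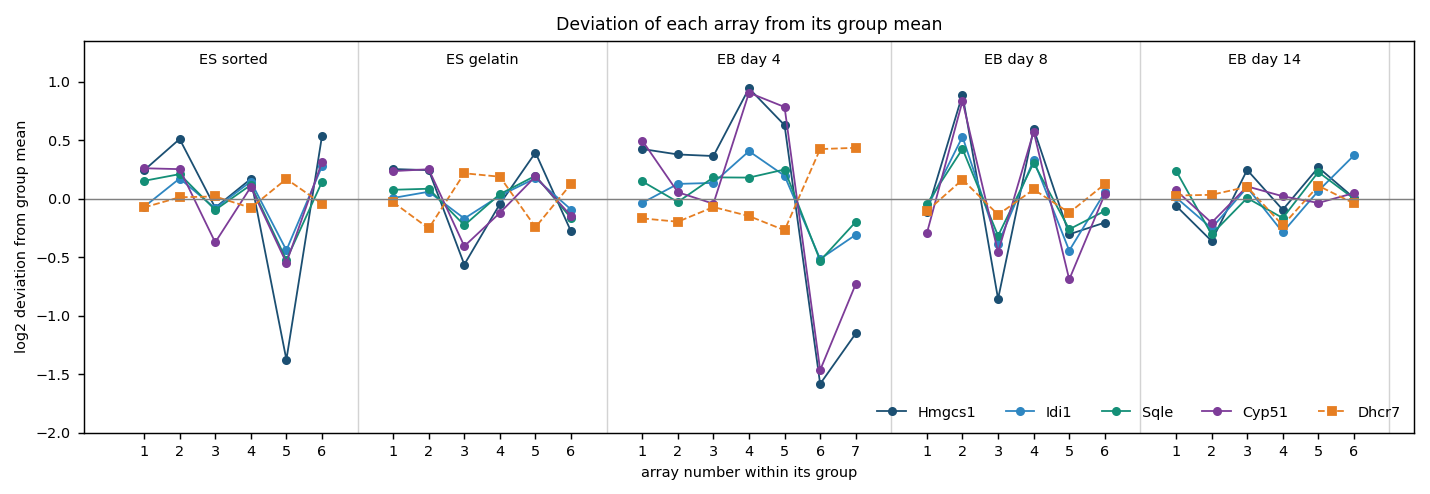
Log2 deviation of each array from its group mean (y axis) for Hmgcs1, Idi1, Sqle and Cyp51 (solid lines, circles) and Dhcr7 (dashed line, squares), with arrays by number within each group on the x axis. Lines join the arrays of a group for the eye only, since replicate numbers have no order. The 4 solid lines dip together on sorted array 5, day 4 arrays 6 and 7 and day 8 arrays 3 and 5.

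Fdps, Fdft1 and Dhcr7 followed Hmgcs1 weakly, not at all or in the other direction. Over 31 arrays Fdps correlated with Hmgcs1 at -0.01 within groups, Fdft1 at -0.51 and Dhcr7 at -0.57. Without the 3 arrays named above those values were 0.04, -0.18 and 0.04, so the pooled values of Fdft1 and Dhcr7 depended on these arrays. For Dhcr7, with all arrays kept, the sign also differed between groups. Its r with Hmgcs1 was -0.859 in sorted cells, -0.854 on gelatin and -0.957 at day 4, and 0.767 at day 8 and 0.424 at day 14. The gelatin, day 8 and day 14 groups hold none of the 3 arrays, so the opposite movement of Dhcr7 on gelatin did not rest on them. Among themselves Fdft1 and Dhcr7 correlated at 0.65, Fdps and Fdft1 at 0.53 and Fdps and Dhcr7 at 0.45 over 31 arrays, and at 0.51, 0.62 and 0.59 over 28.

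**Figure D4:**
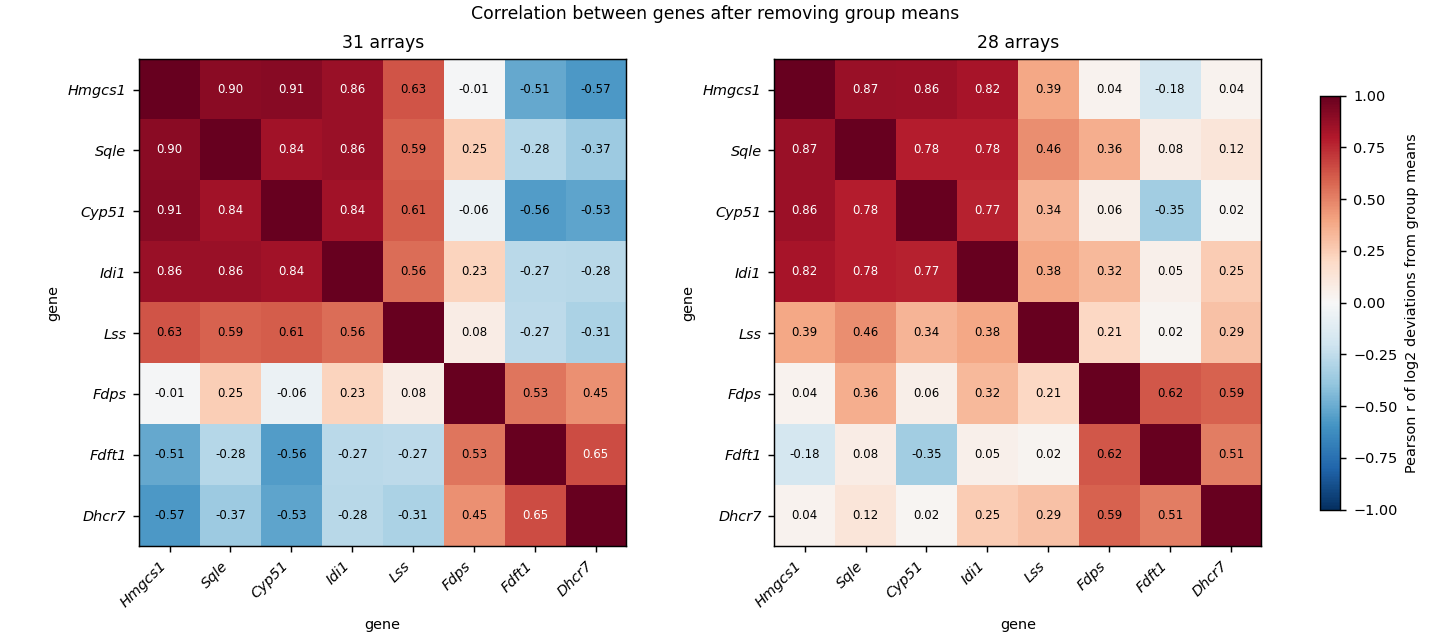
Pearson correlation between each pair of genes after group means were removed, over 31 arrays at left and over the 28 left without sorted replicate 5 and day 4 replicates 6 and 7 at right. Colour runs from -1 to 1 and cells print r. In both panels Hmgcs1, Sqle, Cyp51 and Idi1 form a block of high values at upper left, and the blue cells of Fdft1 and Dhcr7 at left pale in the right panel.

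RNA quality moved with these genes in ways that differed by group. The r of Hmgcs1 with the log2 Gapdh 3′ to 5′ ratio was -0.915 on gelatin and -0.809 at day 14, and 0.776 at day 4 and 0.910 at day 8. On gelatin, arrays 1, 2 and 5 had ratios of 3.48 to 4.04 and Hmgcs1 at 3959 to 4394, and arrays 3, 4 and 6 had ratios of 6.31 to 6.85 and Hmgcs1 at 2263 to 3240.1. For Dhcr7 on gelatin r was 0.931, of the other sign. The part of RNA quality in the spread was not tested.

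Of 15 other listed enzymes of the route, with Ggps1 of a side branch among them, 10 were measured. From day 8 to day 14, 6 rose and 1 fell, where 21.1% of all genes rose and 13.0% fell. At day 14, 4 rose and none fell against gelatin, as against sorted cells, where 22.8% and 27.0% of all genes rose. Ggps1, which is not a step to cholesterol, is counted among the genes that rose in each of these comparisons. Sc5d, a desaturase late in the route, went from 434 ± 185 at day 8 to 718 ± 93 at day 14, a change of 0.83 ± 0.22 log2 (adjusted p = 0.00552). From gelatin Sc5d rose by 0.86 ± 0.22 (adjusted p = 0.00225). The probe sets of Sc5d and Ggps1 carry the same suffix as the main probe set of Fdps, so their signal may include related transcripts. Nsdhl, which removes C4 methyl groups with Msmo1, rose by 0.40 ± 0.08 over gelatin (adjusted p = 6.79e-05), Ggps1, which makes the geranylgeranyl diphosphate used in prenylation, by 0.34 ± 0.07 (adjusted p = 0.000341) and Tm7sf2, a C14 reductase, by 0.15 ± 0.04 (adjusted p = 0.00276). Ebp, the sterol isomerase, ran the other way: it was 2410.3 ± 407 at day 8 against 1285 ± 358 at day 4, a rise of 0.94 ± 0.13 (adjusted p = 9.64e-06), and changed by -0.75 ± 0.14 to day 14 (adjusted p = 0.000183). The highest group mean of Ebp was thus at day 8, as for Dhcr7, where Cyp51 and Lss were lowest.

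Between gelatin and sorted cells 2 of these 10 enzymes were higher and 3 lower on gelatin, shares near the 23.3% and 18.4% of all genes. Hsd17b7, a ketosteroid reductase of the route, and Msmo1 were higher, by 0.42 ± 0.11 and 0.41 ± 0.16 (adjusted p = 0.00254 and 0.0416). Nsdhl, Mvd and Tm7sf2 were lower, with changes of -0.23 ± 0.08, -0.23 ± 0.08 and -0.11 ± 0.04 (adjusted p = 0.0141, 0.0263 and 0.0295). From gelatin to day 4 none of the 10 passed, as with the 8 genes above, and from day 4 to day 8 Ebp rose and Lbr, which holds a C14 reductase domain, fell (-0.46 ± 0.15, adjusted p = 0.027).

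**Figure D5:**
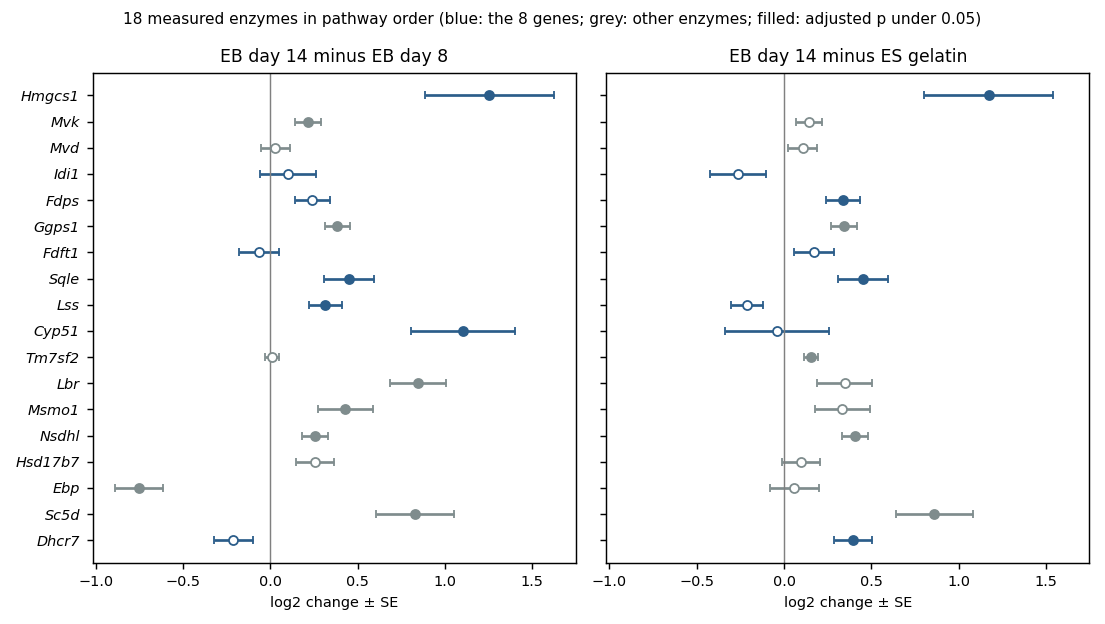
Log2 change (x axis, limma estimate with SE bars) of 18 measured enzymes in pathway order (y axis), from day 8 to day 14 at left and from gelatin to day 14 at right. Blue marks the 8 genes described here, grey the other 10, and filled points passed an adjusted p of 0.05. Ggps1, among the grey points, lies on a side branch. At left the points lie to the right of 0 except Ebp at -0.75, Dhcr7 at -0.21 and Fdft1 at -0.06.

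Of the machinery that senses sterols, 3 of 10 listed genes were measured and Srebf2 was not among them. Insig1, which retains SREBP in the endoplasmic reticulum, lay at or near the floor, at the 4th percentile of mean signal, and gives no reading. Srebf1, the relative of SREBP-2 that serves fatty acid synthesis, was lower at day 14 than on gelatin, with a change of -0.21 ± 0.08 (adjusted p = 0.0251), and Mbtps1, the protease that first cleaves SREBP, was higher by 0.33 ± 0.07 (adjusted p = 0.000478). Of 16 listed genes of lipoprotein uptake and cholesterol transport, 8 were measured. From gelatin to day 14, 3 rose and 2 fell, where 22.8% of all genes rose and 24.1% fell. Npc1 and Npc2, which move cholesterol out of lysosomes, rose by 0.94 ± 0.13 and 0.54 ± 0.09 (adjusted p = 1.23e-06 and 8.98e-06), and the receptor Vldlr by 0.26 ± 0.07 (adjusted p = 0.00508). The receptors Lrp2 and Lrp1 changed by -0.81 ± 0.11 and -0.17 ± 0.06 (adjusted p = 3.88e-07 and 0.0341). On gelatin against sorted cells Lrp2, Npc1 and Lrp1 were higher, by 1.18 ± 0.11, 0.71 ± 0.13 and 0.35 ± 0.06 (adjusted p = 8.96e-10, 9.86e-05 and 7.89e-05).

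Fatty acid synthesis, which shares the acetyl-CoA supply, did not change one way. Of 11 measured genes (16 listed), 5 rose and 4 fell from gelatin to day 14, against the same 22.8% and 24.1% of all genes. The desaturases Scd1 and Scd2 and the acyltransferase Gpam rose, by 0.93 ± 0.16, 0.73 ± 0.19 and 1.07 ± 0.10 (adjusted p = 2.09e-05, 0.00224 and 7.25e-10). Fatty acid synthase Fasn, the citrate lyase Acly and malic enzyme Me1 fell, with changes of -0.81 ± 0.13, -0.46 ± 0.15 and -0.92 ± 0.16 (adjusted p = 8.65e-06, 0.0146 and 3.55e-05). From day 8 to day 14, 6 rose and none fell, where 21.1% of all genes rose. Of 11 measured genes of cholesterol efflux and its LXR regulators (17 listed), 2 rose and 3 fell from gelatin to day 14, near the shares over all genes. The lipoprotein component Apoe, a product of many cell types of the embryo, went up by 1.52 ± 0.10 (adjusted p = 2.73e-12) and the nuclear receptor Rxra went down, with a change of -0.59 ± 0.11 (adjusted p = 9.54e-05). Of 7 measured genes of the other isoprenoid branches (13 listed), 2 rose and 2 fell, also near those shares, with the farnesyltransferase subunits Fnta and Fntb at -0.64 ± 0.08 and -0.61 ± 0.10 (adjusted p = 9.17e-08 and 1.83e-05). Ggps1 is counted here as well as among the other enzymes of the route.

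Across all 31 arrays, which share groups and normalization, the genes whose pattern was most like the mean of the 8 standardized log2 signals were Rrm1 (r = 0.859), Rpgr (0.848), Sesn1 (0.837), Dhx40 (0.824), Cenpc1 (0.812), 4833420G17Rik (0.808), Elovl5 (0.805), Tspyl4 (0.801), Rpp14 (0.796) and Ehhadh (0.792). The least like were Mtfr1l (-0.819), Hcn2 (-0.769), Prrc2a (-0.763), Atg7 (-0.742) and Gpr137b (-0.738). Of the 10 most like, only Elovl5, a fatty acid elongase, was in any list used here. The 8 did not all resemble each other: the r of a gene with the mean of the other 7 was 0.690 for Sqle, 0.665 for Hmgcs1, 0.481 for Cyp51, 0.443 for Idi1, 0.283 for Lss and 0.278 for Fdps, and it was -0.193 for Fdft1 and -0.289 for Dhcr7.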

How the data were processed

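Total RNA from 31 samples was amplified in 2 rounds and hybridized, 1 array per sample. Per the labels and the methods, the authors normalized the arrays and modelled the probes with dChip (version not given in the sources used here), and the deposited values are signal intensity on a linear scale. Control probe sets (66) were left out, leaving 12422. Probe sets with 1 gene symbol (10833) name 8251 genes, each read from its probe set with the highest mean, while 396 with several symbols and 1193 with none were tested but not named. Of 387128 values, 104 were 0. Values under 59.6, the 5th percentile, were raised to it before log2, so fold changes of dim genes are understated. Depth does not apply to arrays, and the number of arrays limits the precision. All 5 groups entered 1 linear model fitted in R 4.3.3 with limma 3.58.1 (moderated by eBayes, prior variance as a trend on mean signal), two-sided, with Benjamini-Hochberg adjustment over all probe sets tested at 0.05. The method was tested on simulated data. Figures used matplotlib 3.10.9.

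Named genes were the 8 enzymes, up to 3 genes in each direction with the largest changes from each related list (from gelatin to day 14, and between gelatin and sorted cells), Insig1, Srebf1 and Srebf2 where measured, and the 10 most and 5 least similar genes. Ebp, Lbr and a few changes outside those comparisons were chosen after their values were seen. The members, lists and alternatives were chosen with earlier results of these data known. Alternatives were scaling, floor, dim probe sets, the groups in the fit, a replicate block, array weights, the variance prior, a 2-fold minimum, the probe sets of a gene, the day 0 reference and leaving out each array. Replicate numbers come from the labels. Same-numbered arrays of different groups correlated at -0.351 to 0.494 after group means were removed (60 pairs), so they were not used as pairs. Some named items are not reported here. Promoter sequences came from RefSeq (GRCm38.p6), which held 5 of the 8 genes.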

Additional observations from a re-analysis of the deposited data

Results flagged for a closer look

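Of 40 combinations of gene and group checked for an outlying array, 1 stood out: Hmgcs1 on sorted replicate 5, at a signal of 1367, where the gap to the next array was 0.68 of the whole range of the group. Chance alone marks about 1 in 20 such groups. Idi1, Sqle and Cyp51 were also lowest of their group on that array, and its ES marker sum was the lowest of the sorted arrays, at 49362.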

How the results depend on the processing

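Of 610 values of single genes under the alternatives that keep all arrays or change the reference or probe set, 573 kept their side of the threshold. Of these, 551 also kept their sign, and 22 took the other sign without passing the test under either setting (adjusted p of 0.0832 or more under the alternative), such as Idi1 and Lss from gelatin to day 4 and Cyp51 from gelatin to day 14 with quantile normalization. Some of the values could not change. The 2-fold minimum acts on the counts alone, and reading Fdps from its second probe set alters only the values of Fdps. Such values are counted among those that kept their side. Quantile normalization gave 0 genes higher on gelatin than in sorted cells, 2 higher at day 4 than on gelatin and 2 lower at day 14 than in sorted cells. Median centring gave 3 higher at day 4 than on gelatin, 2 lower from day 4 to day 8, 1 lower from day 8 to day 14, 1 lower from gelatin to day 14 and 2 lower from sorted cells to day 14. The causes of these moves were not tested. Among all genes, the share of calls that were higher was 55.9% on gelatin against sorted cells (39.8% with quantile normalization, 40.9% with median centring), 31.9% from gelatin to day 4 (56.3% and 56.8%), 61.9% from day 8 to day 14 (42.0% and 37.3%) and 52.5% from sorted cells to day 14 (38.9% and 34.4%). Median centring moved the median gene from sorted cells to day 14 to -0.11 log2.

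Leaving out dim probe sets removed Dhcr7, and with it the 1 gene higher at day 8 than at day 4 (0). Fitting only the compared groups gave 0 higher from day 4 to day 8 and 1 lower from gelatin to day 14. Array weights gave 4 lower from day 4 to day 8, 1 lower from gelatin to day 14 and 1 lower from sorted cells to day 14, and it also gave 5 higher from day 8 to day 14 (Fdps added) and 3 higher from sorted cells to day 14 (Dhcr7 added). A 2-fold minimum left 0 genes each way between gelatin and sorted cells and from day 4 to day 8, 2 higher from day 8 to day 14, 1 higher from gelatin to day 14 and 1 from sorted cells. Averaging the probe sets of each gene gave 1 higher from gelatin to day 4 and 1 lower from sorted cells to day 14. It also added Fdps to the genes higher from day 8 to day 14 (0.16, adjusted p = 0.0255). With sorted cells as day 0, day 4 had 1 gene higher and 1 lower, Idi1 (0.44, adjusted p = 0.0353) and Fdps (-0.30, adjusted p = 0.0214), each of the other sign than against gelatin. With both day 0 groups pooled, Fdps at day 14 changed by 0.08 (adjusted p = 0.649). Further alternatives were added after seeing the data. Without day 4 arrays 6 and 7, 4 genes were lower from day 4 to day 8. With Fdps read from its second probe set 1 gene was higher from gelatin to day 4. That probe set of Fdps also passed from day 8 to day 14 (0.42, adjusted p = 0.0263). The replicate block gave 0 genes higher from gelatin to day 4 and 4 higher from day 8 to day 14, and changed no call.

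Leaving out each array in turn left 575 of 592 such values on their side of the threshold, 562 with their sign and 13 with the other sign and an adjusted p of 0.778 or more. The genes higher on gelatin than in sorted cells numbered 1 to 2, without gelatin or sorted replicate 5 the lower value. From gelatin to day 4, 0 to 1 rose (Fdft1, without gelatin replicate 4 or day 4 replicate 4 or 5). From day 4 to day 8, 1 to 3 fell (3 without day 4 replicate 6, 2 without day 8 replicate 2). From day 8 to day 14, 3 to 5 rose (Sqle lost without day 8 replicate 3 or 5, Fdps gained without day 14 replicate 2 or 4). From gelatin to day 14, 0 to 1 fell (Lss, without day 14 replicate 1 or 2). From sorted cells to day 14, 1 to 2 rose (1 without sorted replicate 5) and 0 to 1 fell (Fdft1, without sorted replicate 6 or day 14 replicate 1). Dhcr7 lies low in the range of signal, so its values rest on less signal over background than those of the others.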
